A study of Mus musculus with 4 samples.

Results

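The semaphorins, ephrins, Slits and netrins, together with their plexin, neuropilin, Eph and Robo receptors, were examined in the transcriptome of 3T3-L1 cells given risperidone. Members were taken by family symbol, with no measured value in the rule, and 58 of the 16051 genes in the deposited table carried one of these family names. Of the 58 genes, 26 had a mean of at least 1 FPKM (fragments per kilobase of transcript, scaled to the fragments mapped, so a level that allows for gene length) over all libraries and were tested, and the other 32 are given by their counts. 3T3-L1 is a mouse fibroblast line of NIH Swiss origin that can be turned into adipocytes, and risperidone is an antipsychotic drug known to cause weight gain. The cells had been differentiated and then received 100 μM risperidone (RIS) for 48 h or the control treatment (RNC), which the sample labels call untreated and the study's methods call DMSO. Both treatments used the same unmodified line. The labels also give the tissue as embryo and an extraction from retinas, which the study's methods do not mention. Each was sequenced as 2 libraries, and RNA from 3 cultures was pooled for each library, so every p-value measures the spread between pooled libraries, which may be technical.

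These families were first known for steering axons, and they are used by many cells that touch, move or form vessels. Secreted semaphorins bind neuropilins that sit beside plexins, whereas membrane-bound semaphorins bind plexins directly, and plexins pass the signal to small GTPases and the cytoskeleton. Ephrin-A ligands are held in the membrane by a lipid anchor and ephrin-B ligands span it, so that a cell with an ephrin and a cell with an Eph receptor tyrosine kinase must meet, and both can then signal. Slits are secreted ligands of Robo receptors, and netrins are secreted ligands of DCC, neogenin and UNC5 receptors.

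The libraries held 15883712 to 16374119 counts each, so that 3 counts, the limit that a count of 0 allows, stood for 0.183 to 0.189 CPM. The study's methods describe the cells as differentiated. Adipoq, Cidec, Retn and Lep nevertheless had 0 to 2 counts in every library, and Cebpa had 1 to 5. Plin1 had 9 and 14 counts in RNC and 1 in each RIS library. With no filter on low values its log2 fold change was -3.29 (adjusted p = 0.0201, edgeR). Of 10 adipocyte markers 4 were expressed at 1 FPKM or more (Lpl, Fabp4, Pparg and Cd36), as were 9 of 10 fibroblast and preadipocyte markers. Adipocyte and preadipocyte markers moved with treatment too. Fabp4 and Lpl fell, with log2 fold changes of -1.09 and -0.24. Of the 9 fibroblast and preadipocyte markers 4 rose and 2 fell, where 32.1% of all genes tested rose and 32.2% fell. Pdgfrb (-0.50) and Col1a2 (-0.16) fell, and Dlk1 (1.52), Thy1 (1.05) and Col1a1 (0.99) were among those that rose. The other, Ly6a (1.20), had 74 counts in RIS2 against 24 to 34 in the other libraries and did not pass without RIS2 (0.53, adjusted p = 0.182, edgeR). The part of these markers in the results for guidance genes was not tested. RIS2 stood apart, since 16 kidney markers summed to 4528 counts there against 152 to 175 in the other libraries, and 8 endothelial markers to 56 against 12 to 17. Values without RIS2 are given where they change the call of a guidance gene.

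Guidance genes changed in both directions, and most of the changes were decreases. With risperidone, 13 of the 26 tested members fell and 5 rose by edgeR's quasi-likelihood test at a Benjamini-Hochberg adjusted p under 0.05, and 8 did not pass. Among all 10243 genes tested, 32.2% fell and 32.1% rose, so the share of members that fell was above that of all genes and the share that rose, 19.2%, below it. A log2 fold change of -1 or less was reached by 4 members (Efna4, Ephb6, Sema3a and Sema4b), which is 15.4% of the members against 3.91% of all genes, whereas 0 members and 2.61% of all genes reached 1 or more. The median log2 fold change was -0.23 for the members and 0.00 for all genes, and for the members it was -0.093 with no filter on low values and -0.094 at a mean of 5 FPKM or more. In these bulk samples, fewer cells of a type and less RNA per cell cannot be told apart.

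Of the 26 members, Ephb6, Sema3a and Sema5a averaged 1 FPKM or more only through the RNC libraries, where they were higher, and 0 members only through RIS. Among the 23 members that did so in both treatments, 10 fell (43.5%, against 31.8% of all such genes) and 5 rose (21.7%, against 32.2%), and 2 reached a log2 fold change of -1 or less (8.70%, against 3.07%). At a mean of 5 FPKM or more, 5 of 15 members fell and 4 rose, beside 33.9% and 33.1% of all genes, so the share that fell was not above that of all genes there. With no filter on low values, 13 of 58 members fell (22.4%, against 19.3% of all genes) and 6 rose (10.3%, against 18.4%). The scale also moved the split. With the library total as the only scaling, 16 members fell and 4 rose, beside 39.9% and 24.4% of all genes, and on log2(TPM + 1) 18 fell and 3 rose, beside 51.7% and 15.0% of all genes. With offsets for gene length in each library, 12 fell and 7 rose, beside 31.9% and 33.3% of all genes. Library totals and TPM moved the median of all genes to -0.09 and -0.22, and members near 0 followed.

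**Figure D1:**
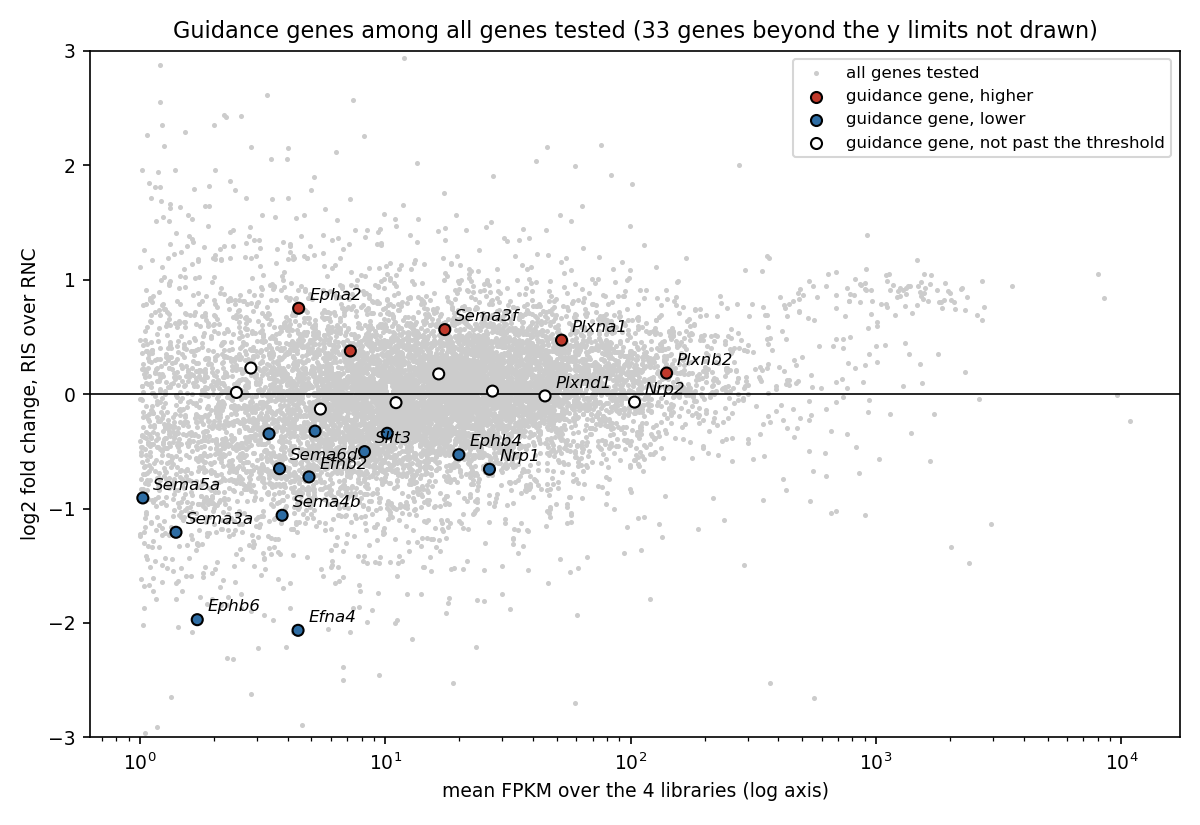
Log2 fold change of RIS over RNC (y axis) against the mean FPKM on a log axis (x axis) for the genes tested (grey), with guidance genes in colour (red higher, blue lower, white not past the threshold). The members fill the range from 1.03 FPKM (Sema5a) to 140 FPKM (Plxnb2), the 4 that fell furthest all lie below 5 FPKM, and 33 other genes lie outside the y limits of -3 and 3.

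**Figure D2:**
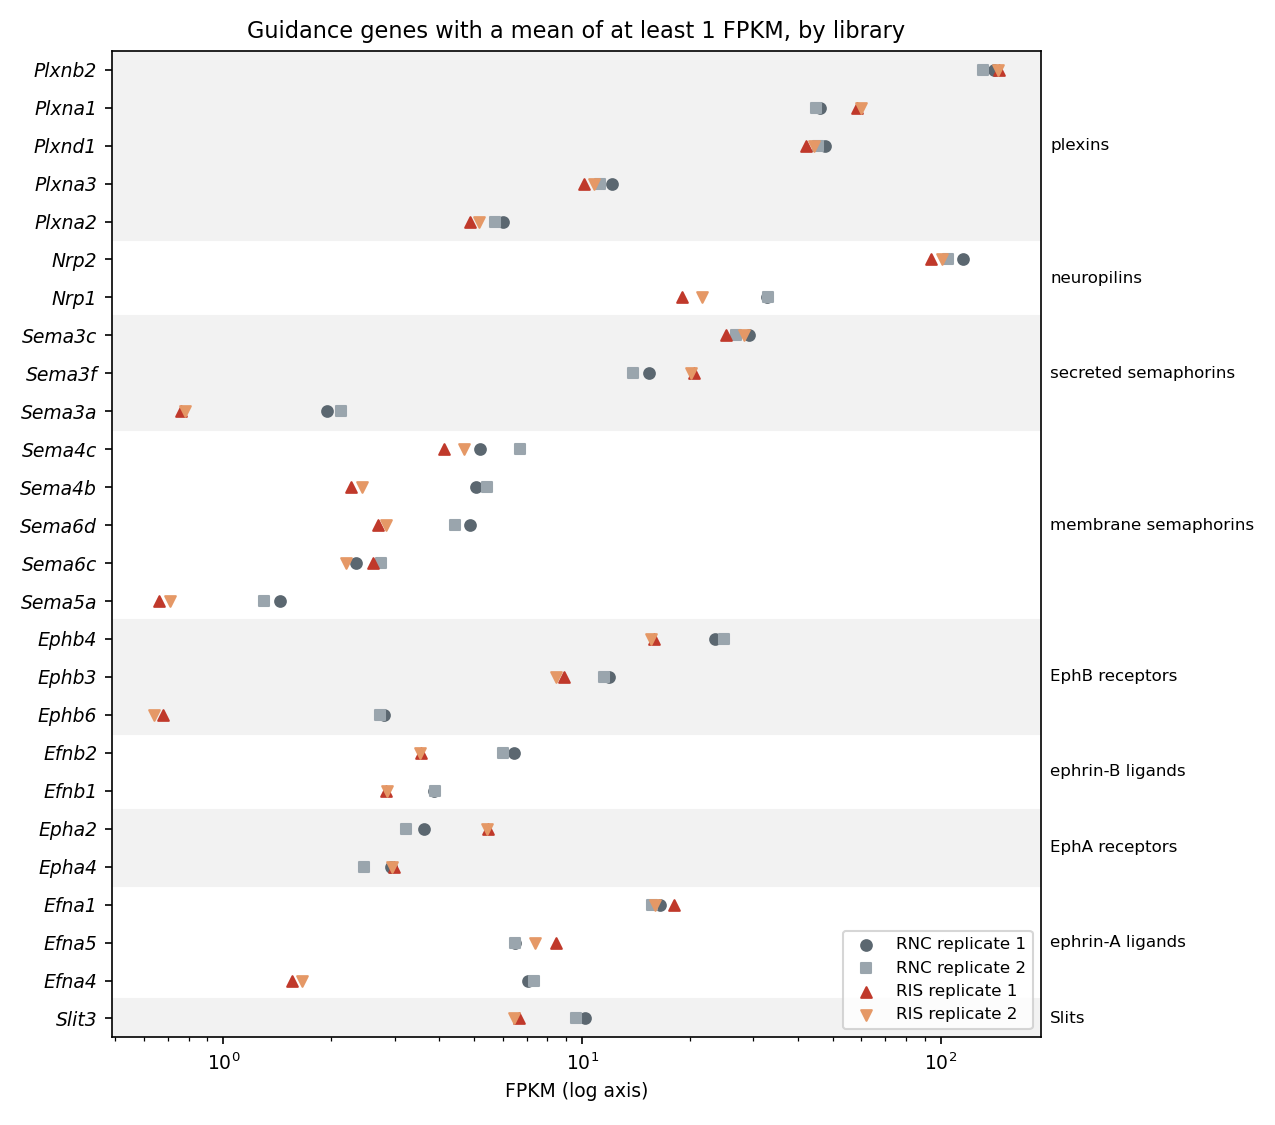
FPKM on a log axis (x axis) of the 26 tested guidance genes (y axis, grouped by role), with 1 point for each of the 2 RNC and 2 RIS libraries. RNC and RIS points overlap for Efna1, Sema6c and Sema3c and not for the other 23 members, beside 82.2% of all genes tested without overlap, and they lie furthest apart for Efna4 and Ephb6.

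Plexins had the highest summed level of the receptor groups. Of 8 plexins in the table, 5 were tested, of which 2 rose and 3 did not pass, where 32.1% of all genes rose and 32.2% fell. With the library total as the only scaling 1 rose and 2 fell (24.4% and 39.9% of all genes), on TPM 1 rose and 3 fell (15.0% and 51.7%), and with length offsets 3 rose and 0 fell (33.3% and 31.9%). Plxnb2, the receptor for class 4 semaphorins and the member with the highest level of the 26, stood at 140 and 131 FPKM in RNC1 and RNC2 and at 145 and 144 FPKM in RIS1 and RIS2. The treatments did not overlap, but the RNC libraries differed from each other by more than the mean of RNC differed from the mean of RIS. The log2 fold change was 0.18 (SE 0.05, adjusted p = 0.00938, edgeR), and it passed in 9 of 14 alternatives. The call was lost without RNC2 (0.13, adjusted p = 0.170), with the library total alone and on both FPKM scales (0.09 in each, adjusted p = 0.141 to 0.150), and on TPM, where the sign turned (-0.053, adjusted p = 0.402, limma). Plxna1, which pairs with neuropilins and also binds Sema6d, measured 46.1 and 44.9 FPKM in RNC and 58.5 and 59.7 FPKM in RIS. Here the treatments were far apart relative to their replicates, with a log2 fold change of 0.47 (SE 0.05, adjusted p = 8.16e-06, edgeR). Plxna1 lies on chromosome 6 (89316313 to 89362613, GRCm38.p6), and 10.7% of its exonic bases overlap Gm26811 on the opposite strand, whose reads cannot be told apart where strand was not used in counting.

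The other tested plexins were Plxnd1 (a receptor for Sema3e), Plxna3 and Plxna2 (both partners of neuropilins). They measured 42.0 to 47.6, 10.1 to 12.1 and 4.88 to 6.02 FPKM over the libraries, and their log2 fold changes were -0.02, -0.07 and -0.13. None passed the test. With the library total as the only scaling and on TPM, Plxna2 and Plxna3 passed as lower, and Plxna2 did so without RIS2 as well (-0.16). Plxnd1 passed as higher with length offsets (0.10, adjusted p = 0.0352, edgeR) and as lower on TPM (-0.25, adjusted p = 0.00580, limma). Because Plxna1 rose beside them, the ratio of Plxna1 to Plxna3 FPKM was 3.81 and 4.0 in RNC and 5.78 and 5.54 in RIS. The summed plexin FPKM was 253 and 239 in RNC and 261 and 264 in RIS, and Plxnb2 made up 54.5% to 55.6% of it in every library. Plxna4, Plxnb1 and Plxnb3 stayed at or under 0.53 FPKM.

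The 2 neuropilins behaved differently. Nrp1, a co-receptor for Sema3a and for vascular endothelial growth factor, stood at 32.8 and 32.9 FPKM in RNC and at 19.0 and 21.6 FPKM in RIS. The RNC libraries were almost equal, and both RIS libraries lay well below them. The log2 fold change was -0.66 (SE 0.06, adjusted p = 3.47e-06, edgeR), with a range from -0.75 to -0.57 when single libraries were left out. Nrp2, the preferred co-receptor of Sema3f, measured 115 and 105 FPKM in RNC and 94.1 and 101 FPKM in RIS. Its log2 fold change of -0.07 (SE 0.06, adjusted p = 0.309, edgeR) did not pass, but it did under scalings that do not adjust for composition (-0.16 with the library total alone, -0.18 on both FPKM scales and -0.32 on TPM). The ratio of Nrp1 to Nrp2 was 0.285 and 0.314 in RNC and 0.202 and 0.215 in RIS. Nrp1 lies on chromosome 8 (128358591 to 128505476) and shares 37 exonic bases (1.03%) with Mir1903 on the same strand.

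Among the secreted semaphorins, the ligands of these receptors, 3 of 6 were tested and each gave a different result. Sema3c, a ligand of both neuropilins and the most abundant semaphorin, measured 29.2 and 26.8 FPKM in RNC and 25.2 and 28.2 FPKM in RIS. The treatments overlapped, and the log2 fold change was 0.03 (SE 0.06), whereas on TPM Sema3c was called lower (-0.21, adjusted p = 0.0452, limma). Sema3f, the class 3 semaphorin that acts mainly through Nrp2, measured 15.4 and 13.9 FPKM in RNC and 20.5 and 20.2 FPKM in RIS. It was the only semaphorin that rose, by 0.56 on the log2 scale (SE 0.07, adjusted p = 3.72e-05, edgeR). Sema3a, the class 3 semaphorin that acts mainly through Nrp1, measured 1.94 and 2.13 FPKM in RNC and 0.76 and 0.78 FPKM in RIS. Both RIS libraries lay below either RNC library, and the log2 fold change was -1.21 (SE 0.13, adjusted p = 1.78e-05, edgeR).

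Sema3a and its co-receptor gene Nrp1 therefore both fell, whereas Sema3f rose and its co-receptor gene Nrp2 did not pass the test. Sema3c exceeded Sema3a 15.0- and 12.6-fold in RNC and 33.2- and 36.1-fold in RIS by FPKM, and it exceeded Sema3f 1.90- and 1.93-fold in RNC and 1.23- and 1.40-fold in RIS. The summed FPKM of secreted semaphorins hardly reflected these shifts, at 46.7 and 42.9 in RNC and 46.6 and 49.4 in RIS. Sema3b, Sema3d and Sema3g stayed at or under 0.19 FPKM. Sema3f lies on chromosome 9 (107681499 to 107710475) and Sema3a on chromosome 5 (13124822 to 13603485), and no other annotated exon overlaps those of either gene.

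Every change called among the membrane-bound semaphorins was a decrease. Of 13, 5 were tested, of which 4 fell, 0 rose and Sema6c did not pass, against 32.2% of all genes tested that fell. Of the 4, Sema5a averaged 1 FPKM only through RNC, and the call of Sema4c was not stable. Sema4b, a class 4 semaphorin, measured 5.05 and 5.43 FPKM in RNC and 2.27 and 2.44 FPKM in RIS. Its log2 fold change was -1.06 (SE 0.12, adjusted p = 1.52e-05, edgeR). Sema6d, a ligand of Plxna1, measured 4.88 and 4.41 FPKM in RNC and 2.70 and 2.84 FPKM in RIS. It fell by 0.65 on the log2 scale (SE 0.09, adjusted p = 8.39e-05, edgeR), while Plxna1 rose. Sema5a, which carries thrombospondin repeats beside its semaphorin domain, measured 1.44 and 1.30 FPKM in RNC and 0.66 and 0.71 FPKM in RIS. Its log2 fold change was -0.91 (SE 0.14, adjusted p = 0.000147, edgeR). In all 3 genes the RNC and RIS libraries were clearly apart.

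Sema4c, a ligand of Plxnb2, had the highest mean level of the membrane-bound semaphorins, with 5.20 and 6.71 FPKM in RNC and 4.11 and 4.67 FPKM in RIS. The RNC libraries differed from each other by more than RNC1 differed from RIS2, and the log2 fold change of -0.32 (SE 0.12, adjusted p = 0.0333, edgeR) passed in 9 of 14 alternatives. The call was lost without RNC2 (-0.14, adjusted p = 0.477) and without RIS1 (-0.25, adjusted p = 0.112), with no filter (adjusted p = 0.118), with length offsets (adjusted p = 0.0671) and by DESeq2 (adjusted p = 0.0967). Sema6c measured 2.20 to 2.74 FPKM with overlapping treatments and a log2 fold change of 0.01 (SE 0.16). Summed over the 13 genes, membrane-bound semaphorins stood at 20.3 and 22.0 FPKM in RNC and 13.6 and 14.7 FPKM in RIS. The filter set the limit at 1 FPKM between Sema5a at 1.03 and Sema4g at 0.92, and Sema4g (68 and 56 counts in RNC, 59 and 69 in RIS) was the highest of the genes that were not tested.

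**Figure D3:**
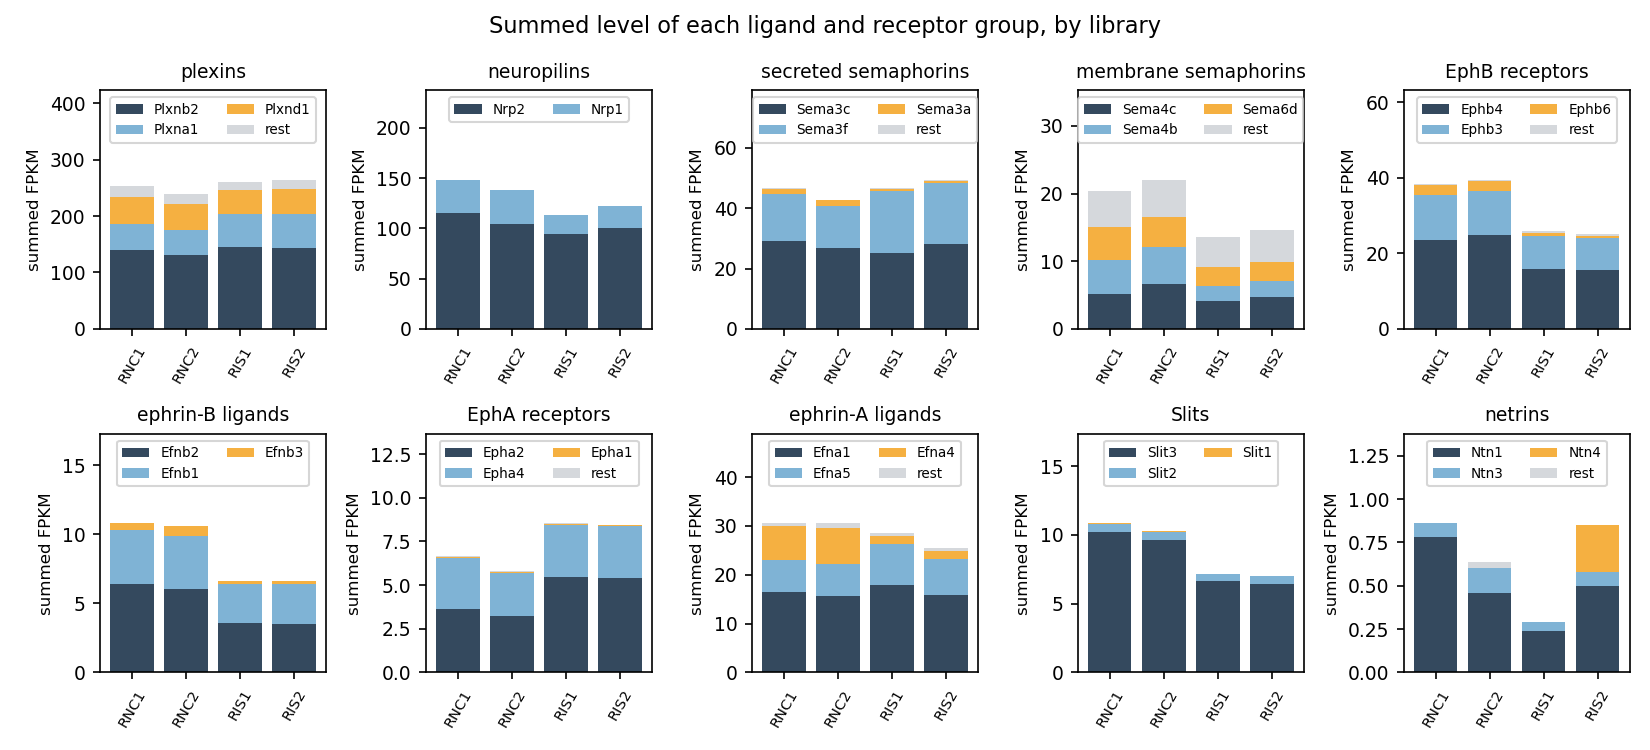
Summed FPKM (y axis) of each role group in the 4 libraries (x axis), stacked by gene. Plexin sums stay at 239 to 264 FPKM, whereas the sums of neuropilins, membrane-bound semaphorins, EphB receptors, ephrin-A ligands, ephrin-B ligands and Slits are lower in both RIS libraries than in both RNC libraries.

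On the B side of the Eph and ephrin families, 3 of 5 EphB receptors were tested and 3 fell, and 2 of 3 ephrin-B ligands were tested and 2 fell, against 32.2% of all genes tested that fell. The groups are small, and Ephb6 averaged 1 FPKM only through RNC. Ephb4, the most abundant Eph receptor, is best known on veins as the partner of ephrin-B2 on arteries, and it measured 23.5 and 24.9 FPKM in RNC and 15.8 and 15.6 FPKM in RIS. It fell by 0.53 on the log2 scale (SE 0.06, adjusted p = 1.54e-05, edgeR). Efnb2, the gene of ephrin-B2, measured 6.44 and 6.02 FPKM in RNC and 3.55 and 3.53 FPKM in RIS. It fell by 0.72 (SE 0.08, adjusted p = 2.58e-05, edgeR), so that the ratio of Ephb4 to Efnb2 was 3.64 and 4.14 in RNC and 4.45 and 4.41 in RIS. Both genes of this receptor and ligand pair had RIS libraries that nearly coincided and lay below both RNC libraries.

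Ephb6, whose protein has a kinase domain without catalytic activity, measured 2.80 and 2.73 FPKM in RNC and 0.68 and 0.64 FPKM in RIS, from 166, 157, 40 and 37 counts. It fell 3.92-fold, a log2 fold change of -1.97 (SE 0.17, adjusted p = 3.23e-06, edgeR), and its range over the alternatives ran from -2.06 to -1.18, the smaller value being on a log scale with 1 added. Ephb3, an active receptor kinase, fell less, with a log2 fold change of -0.34 (SE 0.06, adjusted p = 0.000495, edgeR) at 11.9 and 11.5 FPKM in RNC and 8.87 and 8.43 FPKM in RIS. Efnb1 measured 3.85 and 3.89 FPKM in RNC and 2.84 and 2.85 FPKM in RIS, with a log2 fold change of -0.35 (SE 0.13, adjusted p = 0.0326, edgeR). The call of Efnb1 was lost without RNC1 (adjusted p = 0.148) and without RNC2 (adjusted p = 0.154), with the fold change at -0.35 and -0.34, and also by DESeq2 (adjusted p = 0.141). Ephb2 was not tested because it stayed at or under 0.47 FPKM, but its counts of 33 and 46 in RNC and 83 and 80 in RIS ran the other way, and with no filter it rose by 1.13 on the log2 scale (adjusted p = 0.0117, edgeR).

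The A side was mixed, and it held both the tested member that rose most and the tested member that fell most. Of 6 EphA receptors 2 were tested. Epha2, a receptor kinase of many epithelial and tumour cells whose main ligand is ephrin-A1, measured 3.63 and 3.23 FPKM in RNC and 5.46 and 5.42 FPKM in RIS. Its log2 fold change was 0.75 (SE 0.10, adjusted p = 7.93e-05, edgeR). Epha4, which can bind ephrins of both classes, measured 2.93 and 2.47 FPKM in RNC and 2.99 and 2.94 FPKM in RIS. Its log2 fold change of 0.23 (SE 0.11, adjusted p = 0.0850, edgeR) did not pass. It ranged from 0.11 to 0.36 when single libraries were left out, and Epha4 passed as higher with length offsets. The ratio of Epha2 to Ephb4 FPKM was 0.155 and 0.130 in RNC and 0.345 and 0.348 in RIS.

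Of 5 ephrin-A ligands 3 were tested. Efna4 measured 7.07 and 7.36 FPKM in RNC and 1.55 and 1.66 FPKM in RIS, from 169, 171, 37 and 39 counts. It fell 4.18-fold, a log2 fold change of -2.06 (SE 0.17, adjusted p = 2.17e-06, edgeR), with a range from -2.11 to -2.02 when single libraries were left out. Efna5 rose, from 6.5 FPKM in both RNC libraries to 8.43 and 7.39 FPKM in RIS, a log2 fold change of 0.38 (SE 0.07, adjusted p = 0.000882, edgeR), although on TPM its value was 0.13 with an adjusted p of 0.235 by limma. Efna1, the ligand with the highest level, measured 16.5 and 15.7 FPKM in RNC and 18.0 and 15.9 FPKM in RIS. Its treatments overlapped, and its log2 fold change of 0.18 (SE 0.09, adjusted p = 0.0946, edgeR) passed only without RIS2 (0.27, adjusted p = 0.0250).

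Efna4 and Efna1 are near neighbours on chromosome 3 (89333393 to 89338028 and 89271730 to 89280951), with Efna3 between them at 89313899 to 89322939, and only Efna4 of the 3 passed the test. Efna3 was not tested, with 5 and 15 counts in RNC and 8 and 9 in RIS. The ratio of Efna1 to Efna4 FPKM was 2.33 and 2.13 in RNC and 11.6 and 9.59 in RIS, and that of Epha2 to Efna4 was 0.513 and 0.439 in RNC and 3.52 and 3.27 in RIS. The 2 genes therefore changed order, with Efna4 above Epha2 in both RNC libraries and below it in both RIS libraries. For Efna4, 168 of 1599 exonic bases (10.5%) overlap 4731419I09Rik on the opposite strand, so reads there are uncertain.

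**Figure D4:**
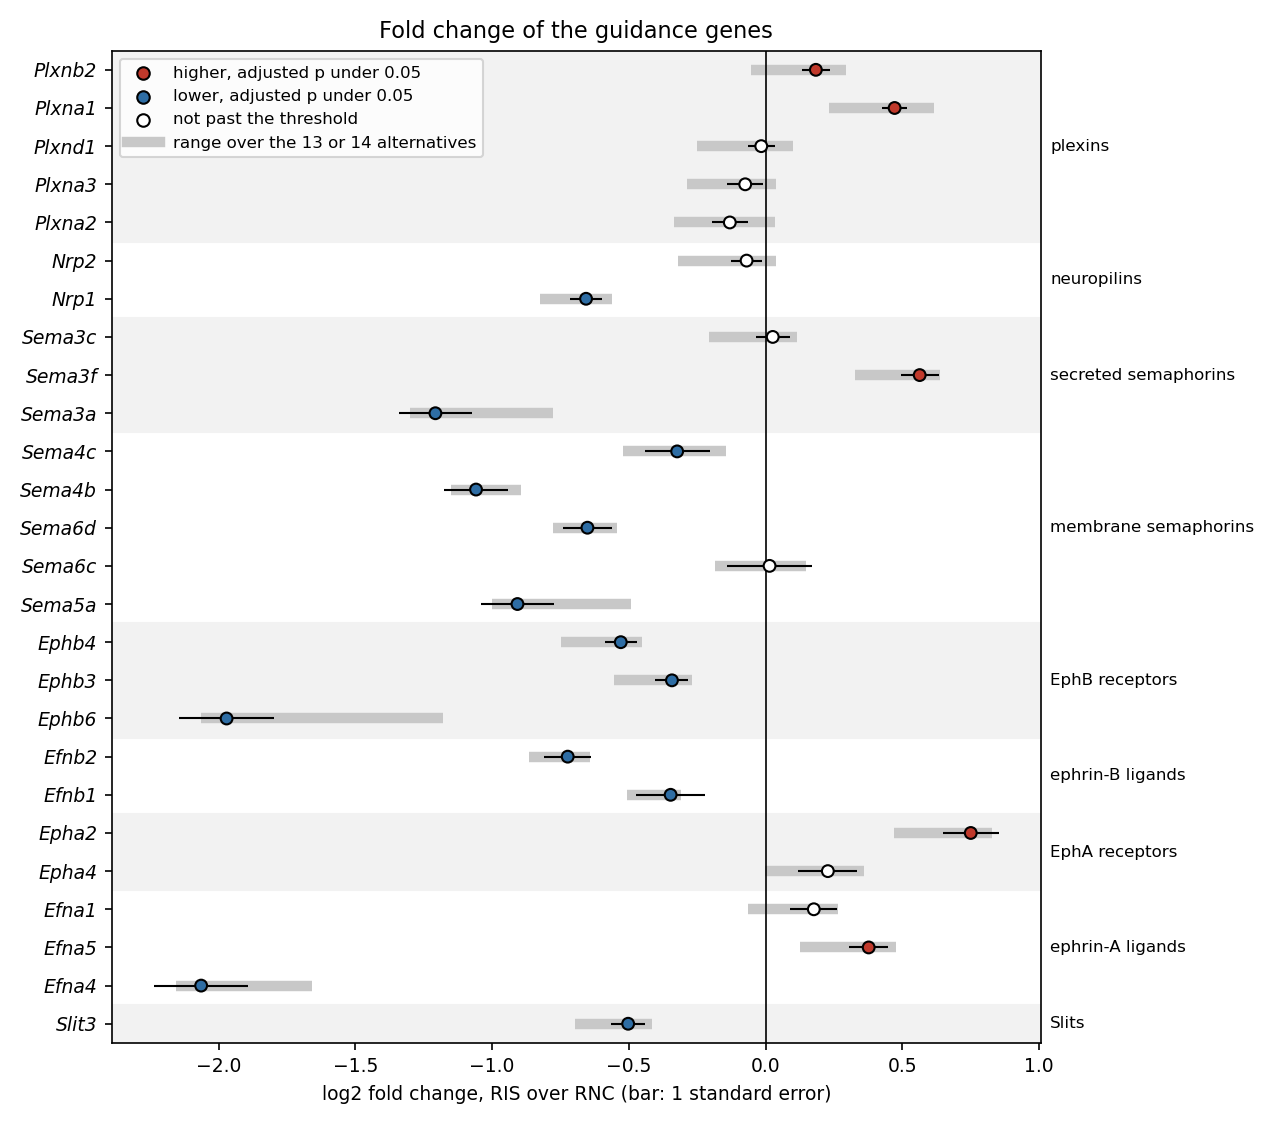
Log2 fold change of RIS over RNC (x axis) for the 26 tested guidance genes (y axis, grouped by role), with bars of 1 standard error and grey bands for the range over the 13 or 14 alternatives that tested the gene. EphB receptors, ephrin-B ligands and Slit3 all lie below 0, Efna4 and Ephb6 lie near -2, and Epha2 lies highest at 0.75.

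The promoters of the ephrin and Eph genes that changed in opposite directions are shown so that the sequence before each start can be compared. They are the genes with the 2 largest decreases and the 2 largest increases among tested members whose RefSeq start was the outermost of the gene and whose window held no annotated exon. Each run is the 250 bases before the RefSeq start on the gene's own strand (GRCm38.p6), 5′ to 3′. Capitals mark matches, on either strand, to the TATA box spelled TATAAA, the CCAAT box, the GC box spelled GGGCGG, the E-box spelled CACGTG and the cyclic AMP response element spelled TGACGTCA. Efna4 (fell) is at chr3:89338029-89338278 on the minus strand, Efnb2 (fell) at chr8:8661243-8661492 on the minus strand, Epha2 (rose) at chr4:141300971-141301220 on the plus strand and Efna5 (rose) at chr17:62881318-62881567 on the minus strand.
Efna4: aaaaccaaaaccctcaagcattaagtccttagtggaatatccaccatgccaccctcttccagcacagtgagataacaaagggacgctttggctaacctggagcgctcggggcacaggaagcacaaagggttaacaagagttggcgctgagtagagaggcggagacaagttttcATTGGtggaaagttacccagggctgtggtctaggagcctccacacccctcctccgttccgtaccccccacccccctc
Efnb2: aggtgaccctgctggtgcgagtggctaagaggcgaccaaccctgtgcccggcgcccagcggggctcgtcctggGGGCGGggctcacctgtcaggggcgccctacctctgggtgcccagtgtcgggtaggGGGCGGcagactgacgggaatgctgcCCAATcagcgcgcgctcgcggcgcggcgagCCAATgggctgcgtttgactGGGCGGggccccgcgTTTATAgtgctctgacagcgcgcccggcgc
Epha2: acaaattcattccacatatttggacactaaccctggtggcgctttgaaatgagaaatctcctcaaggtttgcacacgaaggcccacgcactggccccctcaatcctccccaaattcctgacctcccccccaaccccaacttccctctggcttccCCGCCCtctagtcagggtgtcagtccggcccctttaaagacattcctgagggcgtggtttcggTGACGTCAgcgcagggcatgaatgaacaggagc
Efna5: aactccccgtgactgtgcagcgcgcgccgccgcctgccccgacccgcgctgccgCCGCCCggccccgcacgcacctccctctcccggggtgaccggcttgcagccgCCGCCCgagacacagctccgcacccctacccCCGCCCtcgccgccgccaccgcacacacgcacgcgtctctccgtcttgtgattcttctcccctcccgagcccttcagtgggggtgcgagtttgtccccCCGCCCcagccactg
The Efna4 window has a GC content of 54.4% with 7 CpG dinucleotides and holds 1 CCAAT box, which lies on the opposite strand. The Efnb2 window has a GC content of 72.0% with 27 CpG dinucleotides. It holds 1 TATA box on the opposite strand, and 2 CCAAT boxes and 3 GC boxes on the gene's own strand. The Epha2 window has a GC content of 55.6% with 9 CpG dinucleotides. It holds 1 GC box, on the opposite strand, and 1 cyclic AMP response element. The Efna5 window has a GC content of 74.8% with 32 CpG dinucleotides and holds 4 GC boxes, all on the opposite strand. A gene that fell and a gene that rose are thus found both among the GC-rich and among the GC-poorer windows.

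Of the 26 tested members, 24 had a RefSeq promoter entry and 13 had one at the outermost start. In these 13 the GC box occurred in 11, the CCAAT box in 5, the TATA box in 1, the cyclic AMP response element in 1 and the E-box in 0. Over all 19826 promoters of the same length the shares were 26.8% for the GC box, 34.4% for the CCAAT box, 14.9% for the TATA box, 1.43% for the cyclic AMP response element and 5.57% for the E-box. Over the 4429 promoters of genes tested here they were 60.6%, 39.3%, 6.71%, 3.00% and 9.14% in the same order. The median GC content was 64.8% in the 13, 59.6% in promoters of genes tested and 50% in all promoters. A match describes letters in this window and not a bound site.

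In the Slit and Robo family the only gene expressed above 1 FPKM was a ligand. Slit3 measured 10.2 and 9.62 FPKM in RNC and 6.66 and 6.44 FPKM in RIS. It fell by 0.50 on the log2 scale (SE 0.06, adjusted p = 3.28e-05, edgeR), with both RIS libraries below both RNC libraries. Slit2 stood at 0.63 and 0.63 FPKM in RNC and at 0.50 and 0.57 FPKM in RIS, and Slit1 had 1 to 4 counts. The Robo receptors were near 0, with 1 count of Robo1 and 1 count of Robo3 over the 4 libraries, and Robo4, a receptor of endothelial cells, had 0, 0, 0 and 3 counts. The deposited genes did not include the symbol Robo2, so its level is not known here. Slit3 thus fell in cells in which transcripts of Robo1, Robo3 and Robo4 were not detectable above the limit of 3 counts a library.

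No netrin reached 1 FPKM. Ntn1, the classical netrin, had 72 and 41 counts in RNC and 22 and 45 in RIS, with overlapping treatments. Ntn3 had 4 to 11 counts and Ntn5 had 1 count in all. Ntn4, a netrin of basement membranes, had 0 counts in RNC1, RNC2 and RIS1 and 10 in RIS2. Sema4d, a semaphorin of lymphocytes and other cells, likewise had 1, 0, 1 and 19 counts. These 2 genes and Robo4 had most of their counts in RIS2, the library with 4528 kidney marker counts and 56 endothelial marker counts, and the part of those cell types in these counts was not tested.

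The remaining members were scarce. Of the 32 that were not tested, 18 had fewer than 20 counts summed over the 4 libraries, and 0 of the 58 members were at 0 in all of them. Plxnb3 had 29 and 22 counts in RNC and 7 and 10 in RIS and, with no filter, a log2 fold change of -1.48 (adjusted p = 0.0369, edgeR). Efnb3 had 28 and 39 counts in RNC and 16 and 14 in RIS, with a log2 fold change of -1.06 (adjusted p = 0.0585, edgeR, no filter) that did not pass. Plxnb1 had 30 and 16 counts in RNC and 8 and 10 in RIS (-1.25, adjusted p = 0.0967, edgeR, no filter). The counts of these 3 genes were too low for a firm value. Among other untested members Ephb2 rose, as given above. Sema4f had 0 and 1 counts in RNC and 5 and 4 in RIS (2.97, adjusted p = 0.128, edgeR, no filter).

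Neogenin, UNC5 receptors and RGMs lie outside these families, and the 2 tested receptors rose while the 2 tested RGM ligands fell, where 32.1% of all genes rose and 32.2% fell. Neo1, the gene of neogenin, a receptor for netrins and for repulsive guidance molecules (RGMs), measured 35.3 and 34.5 FPKM in RNC and 44.1 and 43.8 FPKM in RIS, a log2 fold change of 0.43. Unc5b, a netrin receptor, rose by 0.46 on the log2 scale. Dcc and Unc5c were under 1 FPKM. Rgma and Rgmb, RGM ligands of neogenin, fell, with log2 fold changes of -0.45 and -0.47. With no filter, Flrt2 and Flrt3, the genes of adhesion proteins in the same list, were also called, as lower.

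Among the effectors behind plexins, 11 of 19 tested rose, 5 fell and 3 did not pass, where 32.1% of all genes rose and 32.2% fell. On TPM 5 rose and 6 fell, where 15.0% of all genes rose and 51.7% fell. The median log2 fold change was 0.34 and the median of all genes 0.00, and on TPM these were 0.10 and -0.22. The 4 with the largest changes were Dpysl3 (1.03), a collapsin response mediator, Farp1 (0.96), a Rac exchange factor that binds plexins, Met (0.86), the receptor of hepatocyte growth factor that can associate with plexin-B proteins, and Mical3 (-0.83), of the MICAL monooxygenase family. Cfl1, the gene of the actin-severing protein cofilin, fell, with a log2 fold change of -0.35 at 643 to 904 FPKM.

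Of 18 tested effectors of Eph receptors and ephrins, 3 rose, 6 fell and 9 did not pass, with a median log2 fold change of -0.05. The share that fell was close to that of all genes (32.2%), and the share that rose was below it (32.1%). On TPM 0 rose and 12 fell, where 51.7% of all genes fell and 15.0% rose. The 4 with the largest changes were Vav2 (-0.64) and Kalrn (-0.52), exchange factors of small GTPases, Adam10 (-0.52), a membrane protease that can cut ephrins, and Nck2 (-0.42), an adaptor. Of 14 tested effectors of Slit and Robo, 6 rose, 4 fell and 4 did not pass, with a median of 0.14, against the same shares of all genes, and 2 rose and 6 fell on TPM. The 4 largest changes were Srgap3 (1.30), a Rac-inactivating protein, Vasp (-0.54) and Evl (0.43), actin regulators of 1 family, and Pak1 (0.52), a kinase activated by Rac and Cdc42. These lists are described by counts only, and no difference between lists was tested.

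**Figure D5:**
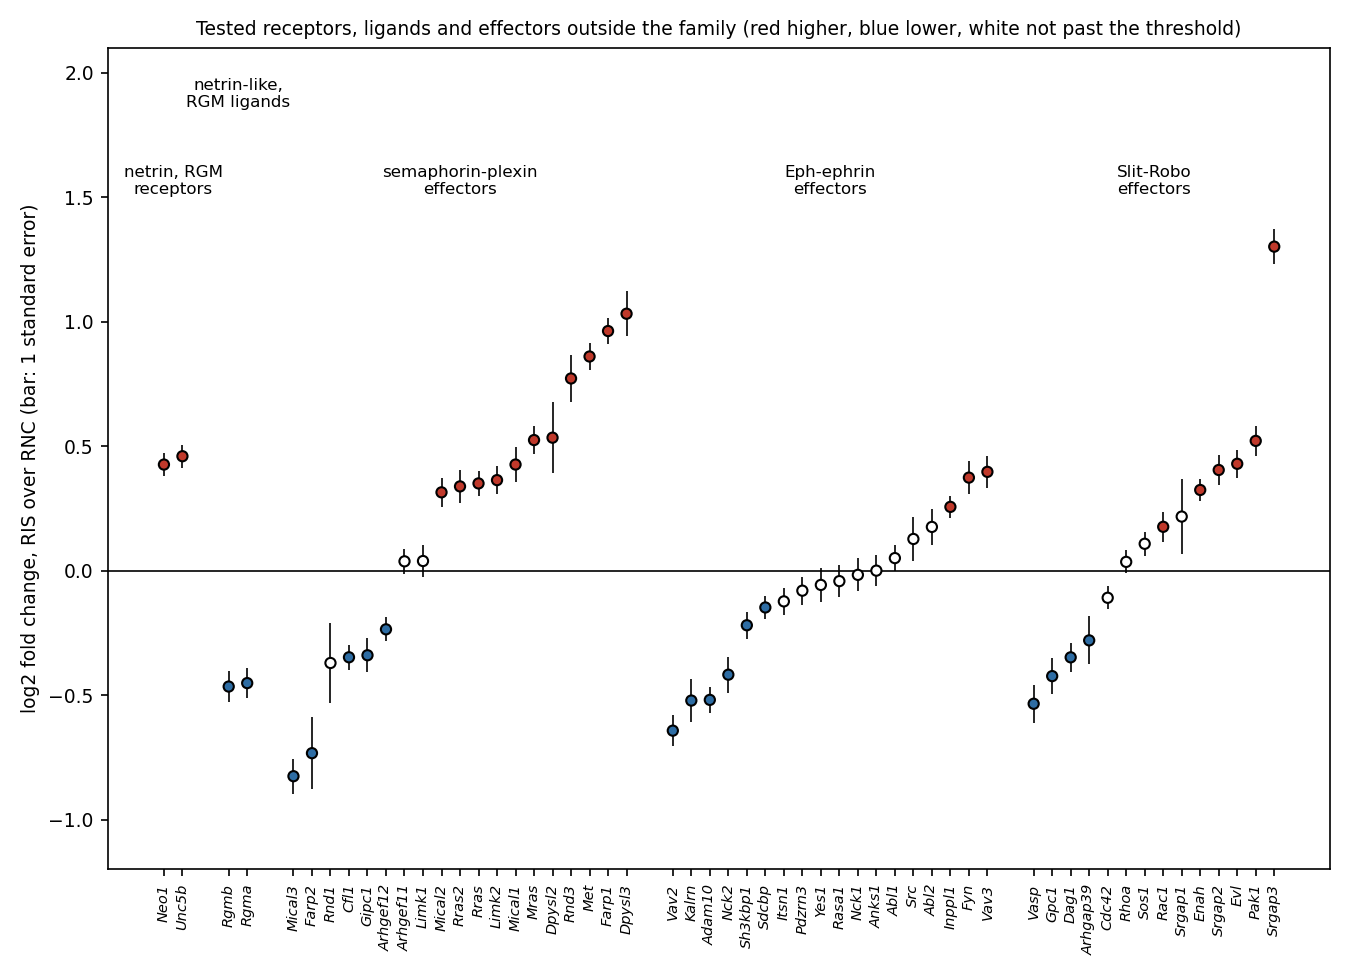
Log2 fold change of RIS over RNC (y axis, bars of 1 standard error) for the tested receptors, ligands and effectors outside the guidance families (x axis, grouped by list), red for higher, blue for lower and white for not past the threshold. Dpysl3, Farp1 and Met stand highest among the plexin effectors and Srgap3 (1.30) highest of the genes shown.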

How the data were processed

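mRNA of 2 control (RNC) and 2 risperidone (RIS) libraries were sequenced, each pooled from 3 cultures. The authors deposited an estimated count (expected count), FPKM and TPM for each gene and library. The submitters' processing notes name Bowtie2, RSEM, DESeq2 and GRCm38.p6, with no versions, and whether counting used strand is not given in the sources used here. Deposited group means were not used. Counts were whole for 91.2% to 91.7% of values and were rounded. The 10243 genes that averaged 1 FPKM or more were tested together with edgeR 4.0.16 in R 4.3.3 (TMM factors 0.963 to 1.03, quasi-likelihood F-test, two-sided, Benjamini-Hochberg adjustment, threshold 0.05). The biological coefficient of variation was 0.0468. A standard error is the size of the log2 fold change over the root of the F statistic. Fold changes follow TMM scaling and can differ from ratios of the deposited FPKM. Members and gene lists were chosen with earlier results of these data known.

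Library values are given for members called with a log2 fold change of 0.5 or more in size and for the highest member of each role group, with values added for other members after they were seen. Up to 4 called genes of each partner list are named, and Cfl1 was added after its value was seen. Alternatives were limma 3.58.1 on FPKM (pseudocounts of 1 and 0.1) and TPM, DESeq2 1.42.0, RLE factors, library size alone, length offsets, other filters, a replicate block and each library left out. The scripts were tested on simulated data. Exon overlaps used GENCODE M21 and promoters RefSeq. The limit of 3 counts covers counting error only.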

Additional observations from a re-analysis of the deposited data

How the results depend on the processing

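Of 353 comparisons of a single guidance gene's fold change with an alternative, 307 kept their direction and their side of the threshold, 13 lost the call, 12 gained one and 21 changed sign, over 9 genes. In 18 of the 21 the gene was called neither there nor by edgeR as reported. With length offsets the signs of Nrp2 (0.037), Plxna2 (0.036), Plxna3 (0.039) and Plxnd1 (0.10) changed. With library size only those of Sema3c (-0.067) and Sema6c (-0.080) changed, as they did with limma on FPKM with pseudocounts of 1 (-0.067 and -0.056) and 0.1 (-0.069 and -0.076). On log2(TPM + 1) Efna1 (-0.066), Epha4 (-0.0037), Plxnb2 (-0.053), Sema3c (-0.21) and Sema6c (-0.19) changed. Of the changes named so far, 2 were to a called value, Plxnd1 with length offsets as higher and Sema3c on TPM as lower. With single libraries left out, Plxnd1 ranged from -0.052 to 0.021, Sema6c from -0.13 to 0.15 and Sema3c from -0.048 to 0.097. The median of the guidance genes was -0.23, and it was -0.093 with no filter and -0.094 at a mean of at least 5 FPKM, where other genes enter or leave, -0.32 with library size only, -0.11 with length offsets, -0.27 and -0.32 with limma on FPKM with pseudocounts of 1 and 0.1, -0.42 on TPM, and -0.23 to -0.16 with single libraries left out, the last being without RNC2. At a mean of at least 5 FPKM, 15 members were tested, 5 fell, 4 rose and 0 passed a log2 fold change of 1 in size. With limma on log2(FPKM + 1), 2 did. On TPM, 3 members rose. With no filter, 4 of the ligand list with Rgma and Rgmb were called. With single libraries left out, the lone library of a treatment was assumed to vary like the other treatment. DESeq2 gave 11 members lower and 5 higher, beside 25.9% and 25.8% of all genes. Beyond the construction of the filters, the cause was not tested.

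With the replicate block, 13 members fell and 5 rose, the same counts as without it, and no member's call changed. Deviations of same-numbered libraries correlated at -0.11 over 9846 genes. With 2 libraries a treatment, this value cannot decide whether the numbers pair the libraries. Crossed numbers as a block, added after the data were seen, gave 14 lower and 5 higher, beside 34.4% and 33.9% of all genes. Levels near 1 FPKM and the 32 untested members are limited by counts, and 2 pooled libraries a treatment limit all values.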
